A study of Mus musculus with 8 samples.

Results

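The features annotated as nuclear ribosomal RNA (rRNA) were taken by their type in the count tables and split by gene name into 5S, 5.8S and others. Of the 2707 features listed for the Ion Proton run 204 were rRNA, and of the 2878 listed for SOLiD, 194. Either run listed 221 of 3514, and both listed 177. By name, 144 of the 221 were 5S genes (n-R5s numbers or Rn5s), 1 was named as 5.8S (n-R5-8s1) and 76 carried a Gm number only. Their positions put 51 of them, 42 named as 5S and 9 by a Gm number, in 1 array on chromosome 8 (mm10, chr8:123538786-123623745, all on the minus strand). The other 170 lay outside it, as 102 dispersed 5S features, the 5.8S feature and 67 features named by a Gm number.

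Small RNA libraries were made from bone marrow-derived macrophages (BMDMs) of 10-week-old male C57BL/6J mice, grown in L929-cell conditioned medium, which supplies Macrophage-Colony Stimulating Factor (M-CSF). Control cells were kept in it, and treated cells were deprived of M-CSF for 36 h, which is an apoptotic stimulus. The Ion Proton run sequenced total RNA in 2 libraries per condition, and the SOLiD run sequenced 1 per condition of total RNA plus 1 per condition of RNA of 25 to 40 nt purified on a gel. The study's methods call the Ion Proton libraries of a condition biological replicates, and the sources used here do not say whether they came from separate mice or separate cultures.

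Counts on listed features summed to between 4039837 and 12178454 per library. In the Ion Proton run a read could be counted at up to 10 places, so these sums are not numbers of reads there. The RNA integrity number, a score of how intact RNA is, was 8.4 to 8.9 in the Ion Proton libraries, 8.4 in control and 7.5 in withdrawal for SOLiD total RNA, and 2.7 and 2.6 for the 25-40 nt RNA. All 5 myeloid miRNA markers were listed in the Ion Proton table, where they summed to between 1377 and 1783 CPM (counts per 1000000 counts on listed features). The 4 listed of 8 markers of other cell types summed to 9.4 to 12.4 CPM. The SOLiD table listed 3 of the myeloid markers, which summed to between 7328 and 17947 RPM (reads per 1000000 on listed features). There, 6 markers of other cell types summed to between 3681 and 5940 RPM, most of it mmu-miR-451a, a red cell miRNA. The part of those cells in the rRNA values was not tested.

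5S rRNA is a short RNA of the large ribosomal subunit. RNA polymerase III transcribes it from an internal promoter, from tandem gene copies, and many truncated or mutated copies lie scattered through mammalian genomes. The 5.8S rRNA is cut from the precursor that RNA polymerase I makes and pairs with 28S rRNA in the same subunit. Fragments of both are common in small RNA libraries, and a short fragment often matches several copies, so that reads on one copy need not come from it.

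Positions and sequences were read from GENCODE release 21 on GRCm38 (mm10). All 221 features matched it, and the sequences of the 204 in the Ion Proton table were identical to those deposited. Rn5s (chr8:123598158-123598276, minus strand) has the sequence of 119 nt that 32 of the 51 array copies share, used here as the reference 5S. The dispersed copies that the results turn on are n-R5s33 (chr16:33001903-33002021, plus, in an intron of Lrch3), n-R5s2 (chrX:6106891-6107009, plus, in no other annotated gene), n-R5s185 (chr4:53860652-53860770, plus, over an exon of Tmem38b) and n-R5s194 (chr3:4338998-4339116, plus, in no other annotated gene).

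The array held 11 distinct sequences, and copies began a median of 1698 bp apart. Outside it the 102 dispersed 5S features were 60.5% to 96.6% identical to the reference (median 78.2%), and the 67 features with a Gm number 26.1% to 82.5% (median 65.5%). A stretch of 15 nt, the shortest read kept, was shared with the reference by 120 of the 170 features outside the array, and 50 shared none. All 170 are annotated with a single exon, and 79 of them lie within a protein coding gene.

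In the Ion Proton run, reads on the 5S array were lower after M-CSF withdrawal in both libraries. The array summed to 153573 and 158835 CPM in control cells and to 80755 and 96820 CPM after withdrawal, or 156204 ± 3721 against 88788 ± 11360 (mean ± SD, n = 2), a ratio of 0.568. Each read could be counted at up to 10 places, so a sum over copies counts reads more than once. Dispersed 5S features summed to 17353 and 17214 CPM in control cells and to 9233 and 10826 CPM after withdrawal, a ratio of 0.580. The 5.8S feature had 6143 and 6595 CPM against 4253 and 4020 CPM, a ratio of 0.650. The 59 features with a Gm number outside the array summed to 6121 and 6570 CPM against 4349 and 4079 CPM. Most of that sum was 1 feature, Gm24601, with 5927 and 6375 CPM against 4109 and 3877 CPM, and the median of the 59 was 0.15 CPM. Gm24601 had nearly the same reads as the 5.8S feature, so these 2 classes are not separate observations. Control and withdrawal libraries did not overlap in any of these classes, and the exact two-sided permutation test gave p = 0.333 for each, the smallest that 2 against 2 libraries allow. The same lack of overlap and the same p were found for every other class summed, so neither is particular to rRNA. Ratios there were 0.736 for miRNA and 0.877 for small nucleolar RNA. They were 1.30 for miscellaneous RNA, 1.41 for small nuclear RNA, 1.72 for nuclear tRNA and 6.40 for mitochondrial tRNA.

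**Figure D1:**
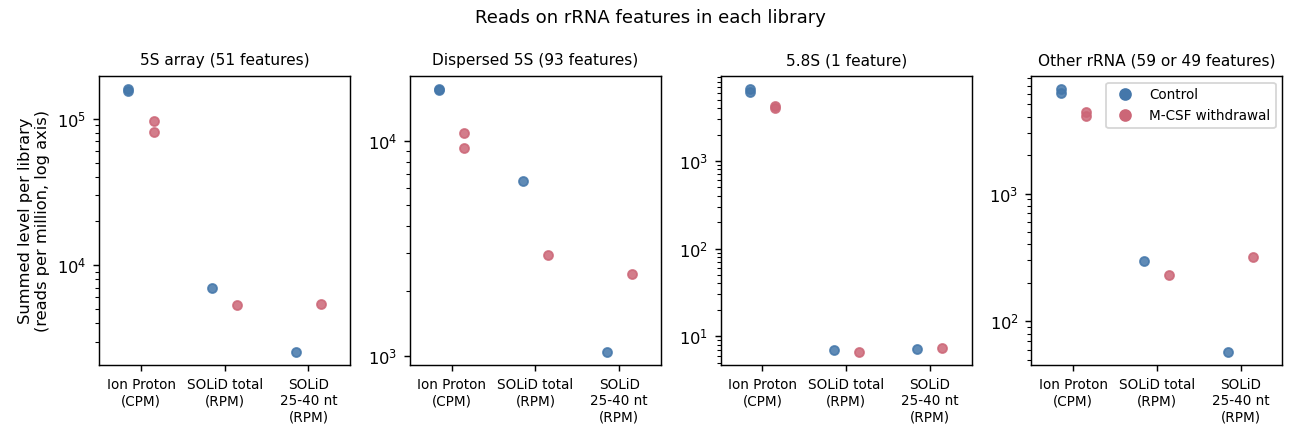
Summed level of each rRNA class in each library (CPM or RPM, log axes that differ between panels), with control in blue and M-CSF withdrawal in red. In the Ion Proton run most of the sum of the other features is 1 feature, Gm24601. The 2 withdrawal libraries of the Ion Proton run lie below both controls in every panel, and in the SOLiD run the array, the dispersed 5S and the other features are lower after withdrawal in total RNA (per 1000000 miRNA reads, the array and the other features there are higher) and higher in 25-40 nt RNA.

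Each feature was then tested with edgeR's quasi-likelihood fit, adjusted by Benjamini-Hochberg over all 2029 features tested. It called 69 of the 159 tested rRNA features lower and 2 higher after withdrawal, at an adjusted p under 0.05. Over all features tested, 8.97% were called lower and 15.7% higher, against 43.4% and 1.26% of rRNA features. The median log2 fold change was -0.76 for rRNA and 0.08 for all features. The 45 rRNA features listed but not tested had a summed count under 5. Of the 51 array copies 51 were called lower, of 78 dispersed 5S features 15, of 29 features with a Gm number outside the array 2 were called lower and 2 higher, and the 5.8S feature was called lower. Copies share reads, so these are not separate observations: with 1 feature kept for each distinct sequence, 34 of 118 were called lower and 1 higher.

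The 32 array copies with the reference sequence had almost the same values in any 1 Ion Proton library. They lay between 3206 and 3236 CPM and between 3297 and 3327 CPM in control cells, and between 1669 and 1695 CPM and between 2022 and 2044 CPM after withdrawal. Their log2 fold changes ran from -0.76 to -0.75, with standard errors of 0.12 and adjusted p from 0.0148 to 0.0152. The first copy of the array, n-R5s100, had 3226 and 3302 CPM in control cells and 1687 and 2033 CPM after withdrawal. The highest in control replicate 2, n-R5s146, had 3233 and 3327 CPM against 1693 and 2039 CPM.

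Copies that differ from the reference fell into 3 levels. The copies with 1 substitution, in 3 distinct sequences held by 4, 3 and 1 copies (the last n-R5s136), and the 2 of 109 nt that lack 10 bases (Gm24089 and Gm23647) were near the reference copies, with n-R5s136 at 3157 and 3251 CPM in control cells and 1596 and 1930 CPM after withdrawal. The 7 copies that share a set of 3 substitutions near the 3′ end, such as n-R5s101 (chr8:123540493-123540611, minus), and n-R5s115 (chr8:123564286-123564404, minus) with 2 substitutions were lower, n-R5s101 at 2256 and 2442 CPM against 1238 and 1427 CPM. The lowest copy was n-R5s109 (chr8:123554060-123554178, minus), with 3 substitutions, at 418 and 502 CPM in control cells and 279 and 297 CPM after withdrawal. Against these gaps in level, their log2 fold changes spanned a narrow range, from -0.81 (n-R5s136, adjusted p = 0.0148) to -0.62 (n-R5s109, adjusted p = 0.0262, and 0.112 or 0.0678 without withdrawal replicate 1 or 2), by the same edgeR test.

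In the SOLiD libraries the same 32 copies differed widely. In total RNA of control cells their values ran from 24.4 RPM at n-R5s100 to 213 RPM at n-R5s149, 8.72-fold, and increased from 1 copy to the next along the chromosome in 30 of 31 steps. After withdrawal they ran from 16.3 to 156 RPM, in 28 of 31 steps upward. The same order was seen in 25-40 nt RNA, from 12.1 to 66.4 RPM in control cells and from 16.3 to 162 RPM after withdrawal. Spearman's rho with the order along the array was 0.99 to 1.00 in the 4 SOLiD libraries and -0.06 to 0.14 in the 4 Ion Proton libraries, as a description over 32 copies of 1 sequence. Reads that lie within these copies match all of them equally. The runs were mapped with different software, and its part was not tested.

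**Figure D2:**
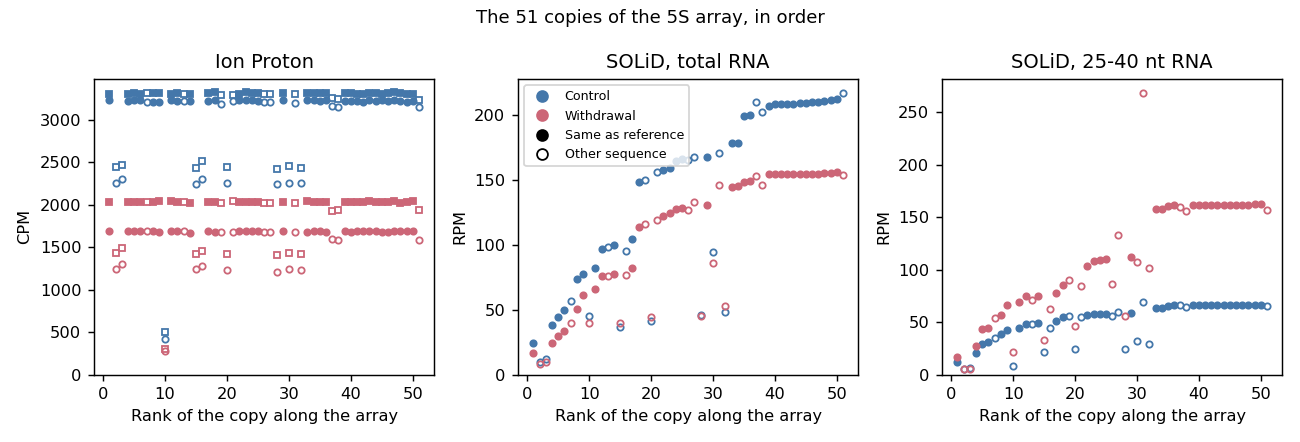
The 51 copies of the 5S array in order along the chromosome, from the first (n-R5s100), with CPM or RPM on linear axes from 0, 1 series per library, control in blue and withdrawal in red (squares are replicate 2), filled where the copy has the reference sequence. Filled points form flat lines in the Ion Proton libraries and climb along the array in the SOLiD libraries, from 24.4 to 213 RPM in control total RNA.

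Summed over the array, the SOLiD total RNA libraries had 6957 RPM in control cells and 5326 RPM after withdrawal, a log2 ratio of -0.39 ± 0.02 (95% counting interval), but 0.61 when scaled per 1000000 miRNA reads. Dispersed 5S features summed to 6503 and 2953 RPM, a log2 ratio of -1.14 ± 0.02. This ratio of sums remained below 0, at -0.15, per 1000000 miRNA reads. Most of the control sum lay on a few copies, named below. The median log2 ratio over 88 dispersed features was -0.45, before the 0.99 that scaling per 1000000 miRNA reads adds. There is 1 library per condition, so no test was made, and intervals cover counting error only. The RNA integrity number was 8.4 in control and 7.5 in withdrawal here, and its part was not tested. Of 180 rRNA features with 5 or more reads in the pair, 23 were at least 2-fold lower, 12.8%, against 9.27% of all features, and 9 were at least 2-fold higher, 5.0% against 24.9%. No array copy reached 2-fold in either direction, and the median log2 ratio was -0.38 for rRNA features and 0.18 for all.

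Single dispersed copies stood above each single array copy in SOLiD total RNA, but below the array sum of 6957 RPM in control cells. n-R5s2 had 1395 RPM in control cells (95% Wilson interval 1365 to 1426) and 524 RPM after withdrawal (511 to 537). n-R5s33 went from 1239 RPM (1211 to 1268) to 236 RPM (227 to 244), the lowest log2 ratio of the 10 highest features, -2.39. n-R5s194 had 791 and 476 RPM, and n-R5s185 had 736 and 222 RPM. Each is 119 nt long, like all array copies but 2 of 109 nt. The highest array copy in control cells, Gm23647 of 109 nt, had 218 RPM. All 4 dispersed copies have their substitutions in the first 64 positions and are identical to the reference from there to the 3′ end.

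In the Ion Proton run the same dispersed copies lay below the array copies with the reference sequence and fell too. n-R5s33 had 2879 and 2852 CPM in control cells and 1478 and 1755 CPM after withdrawal (log2 fold change -0.77 ± 0.11 SE, adjusted p = 0.0137, edgeR). n-R5s2 had 2507 and 2479 CPM against 1308 and 1548 CPM (-0.75 ± 0.11, adjusted p = 0.0144). n-R5s185 had 2337 and 2284 CPM against 1186 and 1421 CPM (-0.77 ± 0.12, adjusted p = 0.0148). All 3 had both withdrawal libraries below both controls. n-R5s194 (-0.74, adjusted p = 0.0148), n-R5s71 (-0.79, adjusted p = 0.0102) and n-R5s151 (-0.77, adjusted p = 0.0123) were called lower by the same edgeR test, while n-R5s77 (-0.86, adjusted p = 0.0653) and n-R5s211 (-0.88, adjusted p = 0.0677) missed the threshold. Both passed it with DESeq2 (adjusted p = 5.82e-07 and 6.81e-07) and with RLE size factors (0.0358 and 0.0376).

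Among called features averaging 10 CPM or more, with copies of the same sequence counted once, the largest falls were n-R5s3 (log2 fold change -0.84), n-R5s93 (-0.81), n-R5s136 (-0.81), Gm24089 (-0.81, with -0.80 for Gm23647 of the same sequence) and n-R5s29 (-0.80), all close to the array median of -0.76. n-R5s3 had 19.5 and 20.5 CPM in control cells and 10.9 and 10.6 CPM after withdrawal. n-R5s93 had 292 and 376 CPM against 181 and 185 CPM. The calls of n-R5s3, n-R5s93 and n-R5s29 were lost without either withdrawal library, at adjusted p from 0.0647 to 0.138 in edgeR, and that of n-R5s29 also without control replicate 2 (adjusted p = 0.0595). They were also lost, with those of n-R5s194 and n-R5s109, when TMM factors came from miRNA features only (adjusted p from 0.0506 to 0.131), and that of n-R5s3 with DESeq2 (adjusted p = 0.0639).

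A rise was called for Gm23806 alone among features with that mean. Gm23806 had 84.1 and 82.7 CPM in control cells and 153 and 119 CPM after withdrawal (log2 fold change 0.76 ± 0.14 SE, adjusted p = 0.0213, edgeR). Both withdrawal values were above both controls, but the call was lost without control replicate 1 (adjusted p = 0.0520) or without withdrawal replicate 1 (adjusted p = 0.0756). The other feature called higher, Gm24573, had 7.09 and 5.15 CPM against 10.9 and 11.9 CPM (adjusted p = 0.0489). n-R5s193, chosen after its values were seen for its likeness to Gm23806, had 155 and 132.6 CPM against 222 and 182 CPM and missed the threshold (0.54 ± 0.14, adjusted p = 0.0514).

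Gm23806 (chrX:159449277-159449385, plus, in an intron of Map7d2) and n-R5s193 (chr4:149817732-149817840, plus) both keep most of the first 90 positions of 5S and lack its 3′ end. Of the features outside the array, the 12 tested that hold a 15-nt stretch starting at position 91 or later had Ion Proton log2 fold changes from -0.88 to -0.17 (median -0.76), 8 of them called lower and 0 higher. The 82 that hold other stretches only ran from -2.75 to 2.31 (median -0.60), with 7 called lower and 2 higher, and the 14 that hold none had a median of -0.77. This split was chosen after the values were seen, and the difference was not tested.

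**Figure D3:**
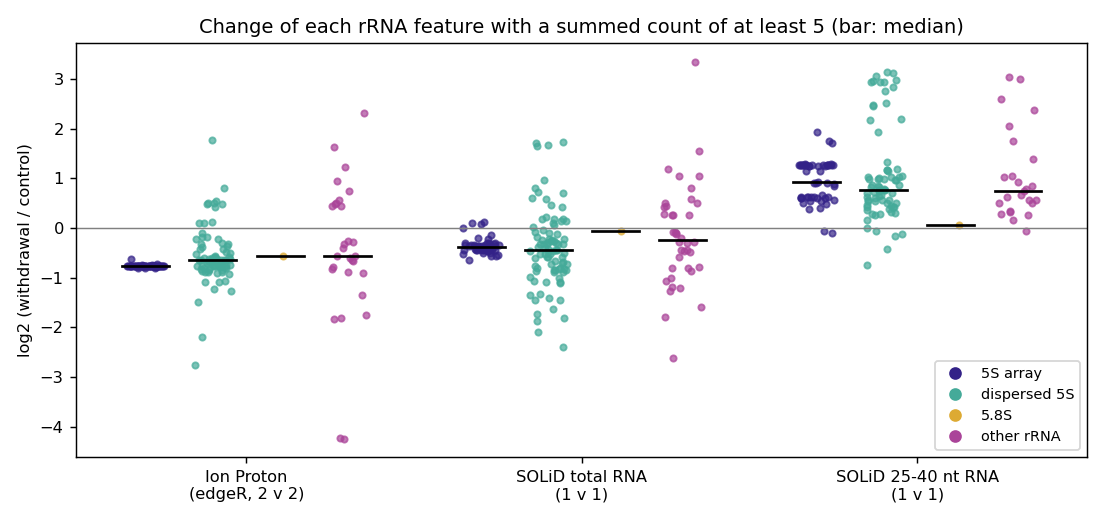
Log2 change (withdrawal over control) of each rRNA feature with 5 or more reads in all, by class and library type, with bars at the medians. In the Ion Proton run the array copies lie between -0.81 and -0.62, in SOLiD total RNA between -0.65 and 0.12 (all above 0 if scaled per 1000000 miRNA reads, which adds 0.99), and in 25-40 nt RNA between -0.09 and 1.94.

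The 5.8S feature n-R5-8s1 fell in the Ion Proton run by 0.57 on the log2 scale (SE 0.07, adjusted p = 0.00844, edgeR). Gm24601 (chr6:94826781-94826923, minus, in no other annotated gene) had nearly the same reads, 5927 and 6375 CPM in control cells and 4109 and 3877 CPM after withdrawal (adjusted p = 0.00872). Its reads were 96.4% to 96.7% of those of n-R5-8s1 in each library, on 143 nt against 148 nt. Over their whole length the pair were 71.1% identical, with a longest shared run of 15 nt, in capitals here, at positions 129 to 143 of n-R5-8s1.
Gm24601: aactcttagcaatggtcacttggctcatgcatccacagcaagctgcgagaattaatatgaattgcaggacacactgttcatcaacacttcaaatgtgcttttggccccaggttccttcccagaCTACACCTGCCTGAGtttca
In SOLiD total RNA n-R5-8s1 had 6.93 RPM (Wilson interval 5.09 to 9.44) in control cells and 6.57 RPM (5.28 to 8.17) after withdrawal, and Gm24601 had 3.46 and 44.2 RPM. Both calls in the Ion Proton run were lost when TMM factors came from miRNA features only (adjusted p = 0.0738 and 0.0757, edgeR).

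Fitted over both runs with limma (treatment and run as terms, 1701 features), 47 of 149 rRNA features were called lower and 0 higher, against 5.70% and 11.6% of all features. Among them were 37 array copies, and all 51 had fitted changes between -0.76 and -0.51. Of the 37, 28 had the reference sequence, and copies share reads, so these are not separate observations. At an unadjusted p under 0.05, 81 were lower and 1 higher, and with voom 67 were called lower and 0 higher. These calls rest on every Ion Proton library: without any 1 of the 4, 0 were called lower (51 to 62 at an unadjusted p under 0.05 in limma), while without either SOLiD library 75 were called lower and 1 higher. Scaled per 1000000 miRNA reads, 0 were called lower and 2 higher.

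In the 25-40 nt RNA most rRNA features were higher after withdrawal. The array summed to 2534 RPM in control cells and 5453 RPM after withdrawal, a log2 ratio of 1.11 ± 0.03 (95% counting interval), but 0.21 when centred on the median feature of 10 RPM or more and 2.06 when scaled per 1000000 miRNA reads. Dispersed 5S features summed to 1041 and 2414 RPM, and features with a Gm number outside the array to 57.3 and 318 RPM. The 5.8S feature had 7.07 and 7.43 RPM, with intervals that overlapped. Of 152 rRNA features with 5 or more reads in the pair, 59 were at least 2-fold higher, 38.8% against 32.1% of all features, and 0 were at least 2-fold lower, against 9.62%. The share at least 2-fold higher was thus near that of all features. The median log2 ratio was 0.84 for rRNA features and 0.48 for all.

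Above that general rise, a number of features outside the array stood out. Some that share a stretch of sequence are given here, and not every feature that stood out holds it. n-R5s64 had 8.42 RPM (Wilson interval 6.72 to 10.5) in control cells and 71.8 RPM (64 to 80.5) after withdrawal. Gm26197 had 8.42 and 76.5 RPM, Gm25555 had 7.86 and 69.6 RPM, n-R5s68 had 5.61 and 54.0 RPM, Gm23764 had 4.26 and 26.2 RPM, and n-R5s62 had 8.08 and 70.5 RPM. Their sequences, read for this reason after the values were seen, hold positions 39 to 53 of the reference, counted from its 5′ end, in common. They lie at chr12:85718477-85718595 (minus), chr14:78311226-78311340 (minus), chr17:32804867-32804977 (minus, in an intron of Zfp811), chr11:27085126-27085207 (plus), chr14:102806099-102806146 (plus) and chr12:82150468-82150563 (plus), in the same order.

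This stretch of 15 nt, searched on the annotated strand, was held by 69 of 2707 features of the Ion Proton table (2.55%), of which 0 were of another type, by 47 of 51 array copies and by 23 of 170 features outside the array. Of the 22 holders outside the array with 5 or more reads in the 25-40 nt pair, 19 were at least 2-fold higher after withdrawal. Their median went from 8.42 to 71.2 RPM, a median log2 ratio of 2.53 (lowest -0.74, highest 3.14). The 3 others were n-R5s93, n-R5s205 and n-R5s170. Among the 79 features without it 15 were at least 2-fold higher, with a median log2 ratio of 0.67 (lowest -0.42, highest 3.13) and medians of 1.23 and 2.97 RPM. The highest of these, n-R5s80, had a larger log2 ratio than each feature listed in the paragraph before. Large rises were thus not limited to holders. The features listed in the paragraph before, picked for their rise, defined the stretch, and all of them are counted among the 19. Members were thus grouped after their values were seen, so the difference is a description, and holders share reads.

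By median, the same holders lay closer to the rest in the other libraries. Their median log2 change was -0.07 in SOLiD total RNA, where 10 were higher and 13 lower, against -0.43 for features without the stretch. There, 6 of 23 holders were at least 2-fold higher and 1 at least 2-fold lower, against 3 and 22 of 106 features without it. In the Ion Proton run the median of the holders was -0.53, with 4 higher and 18 lower, against -0.64. Some of them were also higher in SOLiD total RNA, such as n-R5s68 (1.56 and 7.39 RPM) and Gm26197 (3.98 and 9.36 RPM). Among array copies the highest value in 25-40 nt RNA was that of n-R5s130, which has 1 substitution and went from 69.1 to 268 RPM, while the copy n-R5s146 with the reference sequence went from 66.3 to 162 RPM.

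**Figure D4:**
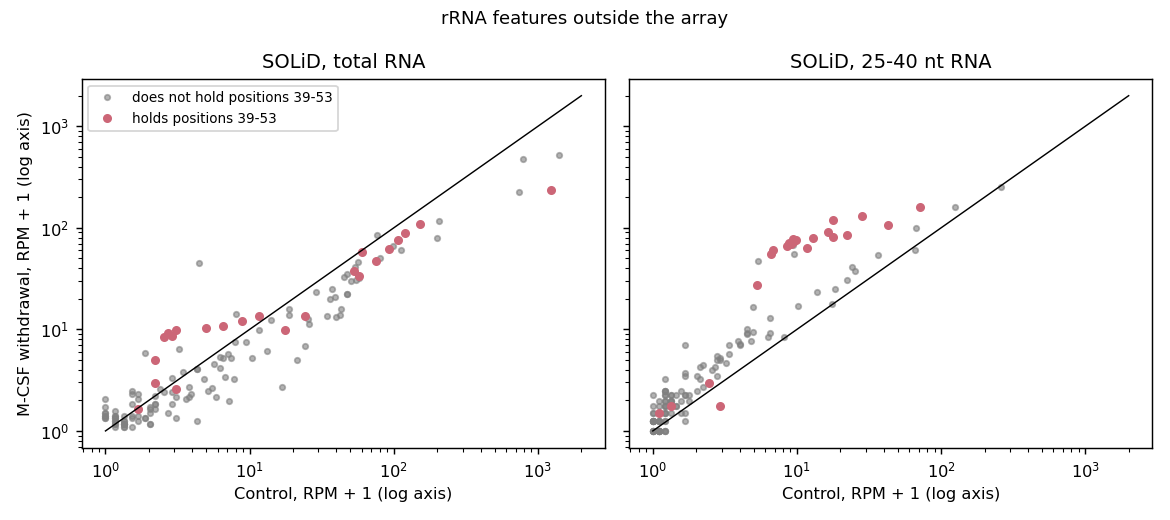
RPM plus 1 of each rRNA feature outside the array in control (x) and withdrawal (y) libraries of the SOLiD run, log axes, with the line of equal values and holders of positions 39 to 53 in red. In 25-40 nt RNA 19 of 22 holders lie at least 2-fold above the line, counting those whose rise there was used to pick the stretch. In total RNA the holders lie on both sides of it.

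Taking each 15-nt stretch of the reference in turn, the features outside the array that hold it gave a profile along 5S. In 25-40 nt RNA the median log2 ratio was 2.27 to 2.67 for stretches that start from position 33 to 47, highest for 44 to 58 (20 features), and fell to 0.84 at position 48 (39 features). For starts at position 76 or later it was 0.18 to 0.81. In the Ion Proton run starts at 76 or later gave -0.78 to -0.66, and in SOLiD total RNA -1.41 to -0.78. Neighbouring stretches are held by overlapping sets of features, so the points are not independent, and stretches held by fewer than 5 features were left out. The features that were picked for their rise in 25-40 nt RNA are included.

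**Figure D5:**
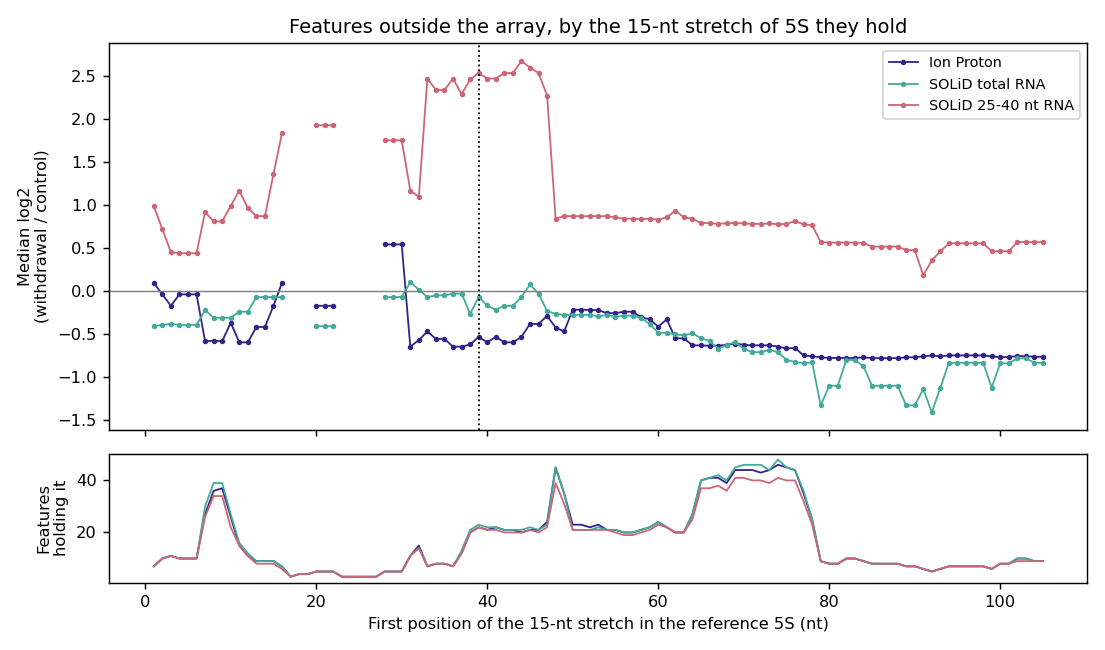
Top, median log2 (withdrawal over control) of the features outside the array that hold each 15-nt stretch of the reference 5S, by its first position, for stretches held by at least 5 features (dotted line at position 39). Bottom, the number of features that hold it. The 25-40 nt curve has a plateau of 2.27 to 2.67 over starts 33 to 47, where the other curves lie between -0.65 and 0.08.

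Other RNA polymerase III transcripts were listed beside 5S. Of 9 tested in the Ion Proton run, 3 were called higher and 0 lower by edgeR at the adjusted threshold (2 lower at an unadjusted p under 0.05, and 2 lower by DESeq2), and their median log2 fold change was 0.00. Vaultrc5, the vault RNA, had 463 and 455 CPM in control cells and 1168 and 1082 CPM after withdrawal, and the other 2 were the Ro-associated RNAs Rny1 and Rny3. Rpph1, the RNA of RNase P, had 782 and 600 CPM against 513 and 426 CPM (log2 fold change -0.51, adjusted p = 0.0983, edgeR). Rmrp (-0.22), Rn7sk (-0.14), Rn7s1 (0.00), Rn7s2 (0.00) and Rnu6 (0.30, at under 1 CPM) did not pass the test. Among classes, 216 of 421 nuclear tRNA features were called higher and 13 lower (median 0.76). Of 373 small nucleolar RNAs, which guide the modification of rRNA, 29 were called higher and 15 lower (median 0.02). Over all features tested, 15.7% were called higher and 8.97% lower. The shares were 51.3% and 3.09% for nuclear tRNA. For small nucleolar RNA they were 7.77% and 4.02%, each below that of all features.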

How the data were processed

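In the Ion Proton run, reads were trimmed with cutadapt 1.2.1, kept from 15 nt and mapped to mm10 with Bowtie2 2.2.4 at up to 10 places each. The authors deposited raw read counts per feature. CPM, over summed counts on listed features, was computed from these. SOLiD reads were mapped with LifeScope 2.5.1, and the authors deposited RPM, reads per 1000000 on listed features. Reads were recovered from the steps of the values (largest distance from a whole number 0.0006).

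Members, lists and tests were chosen with earlier results of these data known. Named features were the array with its first, highest and lowest copy, the 10 highest outside it in the Ion Proton run, the 10 and 5 highest in SOLiD total and 25-40 nt RNA (the array counted as 1), the 5 largest called rises and falls that averaged 10 CPM or more, and 5.8S, features of the same sequence counting as 1. The Gm-numbered features are given by ranges and counts. Mitochondrial rRNA was not analysed here.

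Features whose counts summed to 5 or more were tested with edgeR 4.0.16 (TMM, quasi-likelihood) in the Ion Proton run, and with limma 3.58.1 (intensity trend) on log2 of CPM or RPM plus 1 over both runs, in R 4.3.3, with Benjamini-Hochberg adjustment over all features and a threshold of 0.05. Standard errors of edgeR fold changes were computed from the F statistic. SOLiD log2 ratios use RPM plus 1. Both fits were tested on simulated data. DESeq2 1.42.0, other scalings, filters and pseudocounts, 1 copy per sequence, a replicate block and leaving out each library were alternatives. The letters of the 5S sequences are not reported here. Names, positions and sequences came from GENCODE release 21 (Python 3.11.15, pandas 2.3.3, biopython 1.88).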

Additional observations from a re-analysis of the deposited data

Results flagged for a closer look

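Between the 2 kinds of SOLiD library, from total RNA and from 25-40 nt RNA, the change after M-CSF withdrawal had opposite signs for each class sum and for a number of named features. With 1 library per condition in each, this difference was not tested. The log2 ratio of summed RPM was -0.39 in total RNA and 1.11 in 25-40 nt RNA for the array, -1.14 and 1.21 for dispersed 5S, -0.35 and 2.45 for the other features, and -0.0671 and 0.0623 for 5.8S, whose counting intervals overlap in both. Among named features with counting intervals that did not overlap in either, the values were -2.39 and 1.17 for n-R5s33, -1.72 and 0.57 for n-R5s185, -1.33 and 0.56 for n-R5s77, -0.84 and 0.78 for n-R5s71, and -0.73 and 0.36 for n-R5s194. They were -0.49 and 2.204 for n-R5s156, -0.46 and 1.34 for n-R5s151, and -0.41 and 1.93 for n-R5s28. In the array they were -0.46 and 1.26 for Gm24089, -0.45 and 1.26 for n-R5s136 and -0.44 and 1.27 for n-R5s146. The sign was the same in both for n-R5s2 (-1.41 and -0.05, from 261 to 252 RPM in 25-40 nt RNA, with intervals that overlap there), n-R5s211 (-0.87 and -0.12), n-R5s93 (-0.85 and -0.74), Gm24601 (3.34 and 2.05), Gm23806 (0.81 and 1.75) and n-R5s3 (0.15 and 0.96). The signs are those of RPM, and in total RNA scaling per 1000000 miRNA reads adds 0.99 to each log2 ratio.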

How the results depend on the processing

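In the Ion Proton run the count of rRNA features called lower (69) was 58 to 80 under other scalings, filters, DESeq2 and without any 1 library, and 34 of 118 with 1 feature per sequence. That of features called higher (2) was 1 with RLE size factors, with no TMM factor and with 1 feature per sequence, and 0 to 2 without 1 library, 0 without withdrawal replicate 1. TMM factors from miRNA features only moved the median over all features from 0.08 to 0.39 and that of rRNA from -0.76 to -0.44, with 58 called lower. Control and withdrawal replicates were matched by a number and a letter in their labels only. Between their deviations r was 0.00562 over 852 features and -0.396 over 96 rRNA features. With a replicate block in edgeR 64 were called lower and 2 higher, the calls of n-R5s3 (adjusted p = 0.0570) and n-R5s29 (0.0635) being lost.

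Over both runs 47 were called lower and 0 higher. With a replicate block 0 were called lower (68 at an unadjusted p under 0.05), as with values per 1000000 miRNA reads (2 higher), and 79 with median centring. Without 1 library the count lower ran from 0 to 75 and the count higher from 0 to 1. Per 1000000 miRNA reads the median of rRNA moved to -0.05 and that of all features from 0.17 to 0.69. The cause was not tested.

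For SOLiD total RNA, the log2 ratio of summed RPM centred on the median feature (0.43, over those of 10 RPM or more in the control and the withdrawal library) was -0.81 for the array, -1.57 for dispersed 5S and -0.78 for other features. Per 1000000 miRNA reads it was 0.61 for the array, 0.92 for 5.8S and 0.64 for other features, all turned in sign, and -0.15 for dispersed 5S. With 1 copy per sequence the array gave -0.35. For 25-40 nt RNA, centring the same way (median 0.90) gave 0.21 for the array, 0.31 for dispersed 5S, 1.55 for other features and -0.84 for 5.8S, which turned in sign. Per 1000000 miRNA reads these were 2.06, 2.17, 3.405 and 1.02. Shares of Ion Proton counts kept their direction in all alternatives. Depth limits 5.8S in the SOLiD run, where its counting interval of the log2 ratio was ± 0.55 and ± 0.63.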
